A study of Mus musculus with 9 samples.

Results

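The genes described here are 40 interferon-stimulated antiviral effectors of the mouse, listed by name as known interferon-induced genes, out of 54532 genes in the deposited table. Each of the 40 matched 1 row. The Oas, Gbp and Irg genes, the RNA sensors and the Stat and Irf factors were kept apart from them and serve below as the other genes of the pathway. RNA was sequenced from RENCA, a renal carcinoma line that arose in a BALB/c mouse, in 3 groups of 3 libraries each. Empty-vector cells carry the label WT. Knockout cells carry the label NDUFA4L2 -/- and were grown from single-cell colonies after Cas9 editing with a single guide, and their knockout was screened by qPCR. Rescue cells carry the label NDUFA4L2 +/+ and are described as knockout cells given NDUFA4L2 by a lentivirus with a puromycin resistance cassette, then selected with puromycin. Which clone or clones were sequenced, whether the empty-vector cells were cloned, and whether they saw puromycin or a lentivirus are things the sources used here do not give. Differences between the groups can therefore not be told apart from differences between clones, nor, for rescue, from the lentivirus and the selection. No interferon treatment is named for any group.

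Type I, II and III interferons bind receptors whose Jak kinases phosphorylate Stat factors. With Irf9 these can form a complex that binds interferon-stimulated response elements in the promoters of many genes, and Stat dimers bind gamma-activated sites. The proteins so induced block viruses at entry, replication, translation and release, and tumour cells can keep a part of the programme switched on at a low level without infection. Ndufa4l2 encodes a mitochondrial protein related to a respiratory-chain subunit and is best known as a hypoxia-induced gene in clear cell kidney cancer.

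Library totals ran from 13106531 to 26643877 counts. Nothing in the labels tells if replicates were separate cultures, so p-values speak only of the spread among libraries, possibly a technical one. The series' design text counts fewer replicates for knockout than are labelled and tabulated, and all 3 were used. Ndufa4l2 itself had 6 to 16 counts with empty vector, 6 to 8 for knockout and 35 to 73 for rescue, so its counts set rescue apart and do not part knockout from empty vector (log2 change -0.36 ± 0.42, SE; edgeR adjusted p = 0.47). Genes of the mitochondrial genome, whose share can move with RNA quality, took 5.79% to 7.93% of counts in knockout, 2.16% to 3.17% in empty vector and 2.24% to 2.65% in rescue. Of 8 renal epithelial markers 7 were tested, and Epcam had at most 1 count in any library. Of 10 leukocyte markers 3 were tested (Cd79a, Csf1r and Lyz2), and the list summed to 3.93 to 6.13 CPM (counts scaled to a common depth) with empty vector, 14.9 to 17.1 for knockout and 5.03 to 5.38 for rescue. Cd79a, Csf1r and Lyz2 were 1.53-fold, 3.56-fold and 7.78-fold higher in knockout than in empty vector. All 3 were called there, and all 3 were called lower in rescue against knockout. Of the genes not tested, Fcer1g reached at most 4 counts, Ptprc and Laptm5 2 and Tyrobp 1. Cd3e, Itgam and Siglech, a marker of plasmacytoid dendritic cells, were at 0 throughout. The 5 endothelial markers summed to at most 1.08 CPM. The 6 fibroblast markers, carried mostly by Pdgfrb, summed to 26.5 to 33.6, 60.7 to 71.2 and 28.4 to 30.5 CPM in the same order of groups. The renal epithelial list summed to 992 to 1216, 1608 to 1736 and 1326 to 1377 CPM in that order, and in knockout against empty vector 5 of its 7 tested genes rose and 2 fell. Cdh1 followed the order of most effectors, 8.29-fold higher in knockout than in empty vector and 39.7-fold lower in rescue than in knockout, while Pax8 was 2.40-fold lower in knockout than in empty vector. The part of these shifts in the results below was not tested. Leaving genes of the mitochondrial genome out of the fit changed no member's call. That step removes only their own rows, so it cannot test a difference in RNA quality or cell state. In bulk RNA, fewer expressing cells and less RNA per cell cannot be told apart.

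The effectors were highest in knockout and lowest in rescue. In knockout against empty vector 30 of the 40 rose and 2 fell, where 29.5% of all 13326 genes tested rose and 31.1% fell (called at an edgeR adjusted p under 0.05). In rescue against knockout 34 fell and 1 rose, where 27.3% of all genes fell and 29.5% rose. In rescue against empty vector 32 fell and 3 rose, where 25.1% of all genes fell and 22.4% rose. By at least 2-fold, 14 rose in knockout against empty vector (8.13% of all genes), 32 fell in rescue against knockout (8.4% of all genes) and 22 fell in rescue against empty vector (3.29% of all genes). These comparisons share libraries: knockout serves in the first and the second, and rescue in the second and the third.

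Of the 40, 38 passed the filter on low counts. Ifi27l2a passed through the 3 knockout libraries alone, so its differences from knockout were built in. Without it, 29 effectors rose in knockout against empty vector (13 by at least 2-fold) and 33 fell in rescue against knockout (31 by at least 2-fold). Apol6, Phf11d and Mx1 reached the count minimum in no rescue library. Ube2l6 reached it in no empty-vector library, but in 2 knockout and 3 rescue libraries. These genes passed through the groups where they were higher, which favoured those differences, and they were not left out of any count. Over the 38, the median log2 change was 0.70 in knockout against empty vector, -2.09 in rescue against knockout and -1.14 in rescue against empty vector, beside -0.02, 0.03 and -0.02 over all genes tested. Single effectors ran from -0.64 to 3.56, from -7.19 to 0.62 and from -3.63 to 1.03 in these comparisons. Scaling by library totals alone shifted the all-gene median by -0.15, 0.18 and 0.03. The effectors then had medians of 0.54, -1.90 and -1.11, with 25 called higher and 4 lower in knockout against empty vector and 34 lower and 2 higher in rescue against knockout. On that scale the share of all calls that were higher went from 48.7% to 34.4% in knockout against empty vector and from 51.9% to 69.6% in rescue against knockout.

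**Figure D1:**
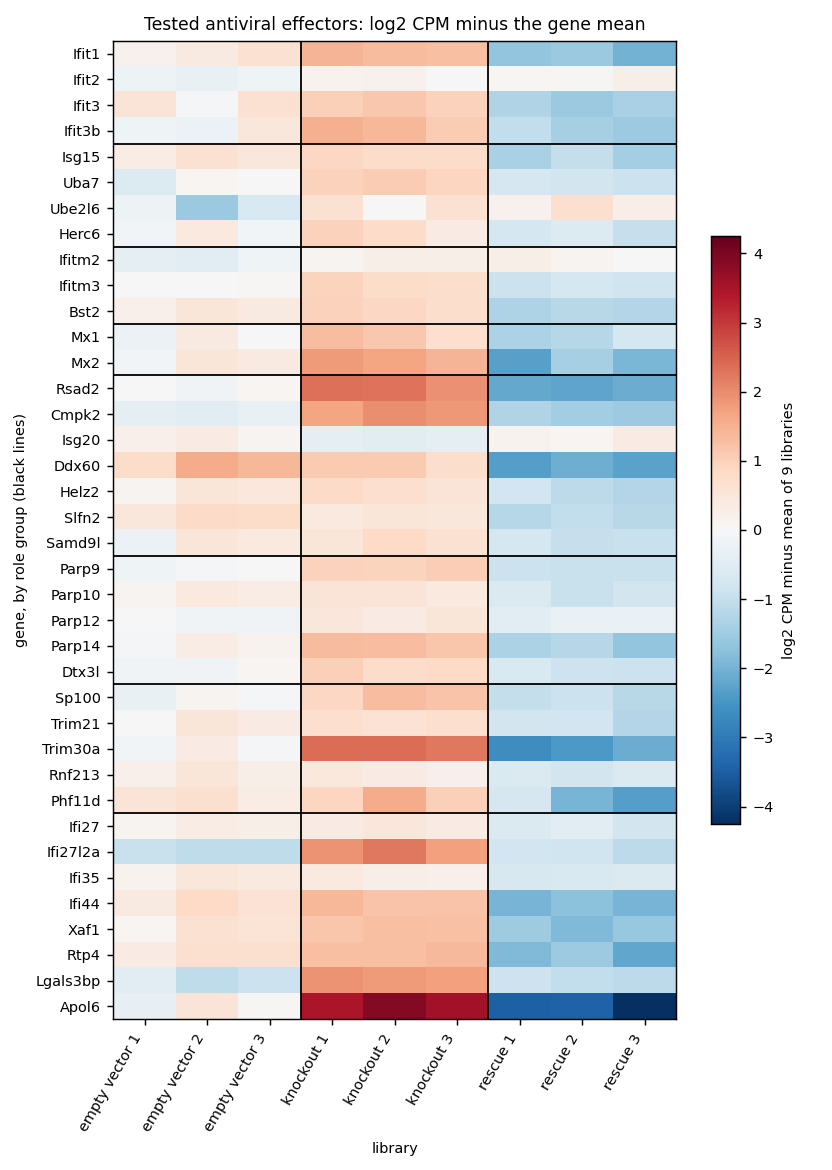
Log2 CPM of the 38 tested effectors in each of the 9 libraries (columns) after subtraction of the gene's mean over all 9, with genes in rows by role group. Knockout columns are red for most genes and rescue columns blue, Ifit2, Ifitm2 and Ube2l6 are pale or red in rescue, and Isg20 is pale blue in knockout.

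The promoters of some effectors are shown because the letters that the interferon-activated complex is known to bind can be read in them. Promoters were taken from RefSeq (GRCm38.p6, the assembly of mm10) as 250 bases before to 50 after each start, and 31 of the 40 effectors had an entry. Mx1, Mx2, Parp9, Parp10, Parp14, Ifi27, Ifi27l2a, Rtp4 and Apol6 had none. The core GAAANNGAAA, searched on both strands (TTTCNNTTTC on the other), was found in 11 of the 31, or 35.5%, against 3.99% of 27025 genes and 3.44% of 32851 promoters in the table. These 11 were Bst2, Ddx60, Ifit1, Ifit3, Ifit3b, Ifitm2, Ifitm3, Isg15, Rsad2, Trim21 and Trim30a. The gamma-activated core TTCNNNGAA, which reads the same on both strands, was found in 5 of the 31, or 16.1%, against 9.55% of genes: Bst2, Ifi35, Ifit2, Ifitm3 and Isg20. In Bst2 and in Ifitm3 a match to each motif overlaps the other. A match is a description of letters, not a site shown to be bound, and an effector without a match only lacks these letters in this window. The effectors were listed as known interferon-induced genes, so a higher share of such matches was built into the list. That share says nothing about the changes in these libraries. Ifitm2 and Trim30a also held a response-element match before the start and are not printed. Of these, Ifitm2 was not called in rescue against knockout (log2 change -0.07, edgeR adjusted p = 0.45). Ddx60 is printed, although it was not called in knockout against empty vector (-0.29, edgeR adjusted p = 0.15). The stretches below lie before the start, run 5′ to 3′ on the gene's strand and carry the response-element core in capitals.
Isg15, chr4:156200850-156200921, minus strand: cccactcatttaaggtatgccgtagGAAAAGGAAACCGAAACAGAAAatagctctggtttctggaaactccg
Rsad2, chr12:26456538-26456597, minus strand: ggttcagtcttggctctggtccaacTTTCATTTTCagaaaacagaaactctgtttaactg
Bst2, chr8:71537562-71537627, minus strand: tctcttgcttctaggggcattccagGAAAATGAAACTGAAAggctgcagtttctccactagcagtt
Ddx60, chr8:61928009-61928086, plus strand: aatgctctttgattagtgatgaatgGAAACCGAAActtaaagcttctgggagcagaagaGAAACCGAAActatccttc
Ifit1, chr19:34640760-34640838, plus strand: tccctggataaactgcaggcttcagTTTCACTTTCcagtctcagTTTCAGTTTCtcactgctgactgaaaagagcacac
Ifit3, chr19:34583348-34583441, plus strand: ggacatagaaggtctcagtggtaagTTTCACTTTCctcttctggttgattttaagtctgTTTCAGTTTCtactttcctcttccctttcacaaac
Ifit3b, chr19:34607744-34607837, plus strand: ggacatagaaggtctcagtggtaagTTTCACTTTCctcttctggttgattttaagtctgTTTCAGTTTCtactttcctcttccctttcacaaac
In Isg15 the capitals hold 3 overlapping matches and in Bst2 2 overlapping ones, while Ddx60, Ifit1, Ifit3 and Ifit3b each hold 2 separate matches. The stretches of Ifit3 and Ifit3b, which are neighbours, were the same over all 94 bases (0 mismatches). The transcribed parts of the 2 genes were not compared.

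The Ifit genes encode proteins that bind foreign RNA ends and keep them from being translated, and they lie in a row on the plus strand of chromosome 19 (mm10, as all positions of the deposited table). Ifit1 (34640871 to 34650009) stood at 9.81, 11.2 and 13.6 CPM with empty vector, 23.7, 21.6 and 20.7 for knockout and 2.67, 2.90 and 2.14 for rescue. All knockout libraries lay above, and all rescue libraries below, those of empty vector. It rose in knockout against empty vector by 0.93 ± 0.12 (log2 change ± SE, as throughout; edgeR adjusted p = 1.6e-06) and fell in rescue against knockout by 3.08 ± 0.15 (edgeR adjusted p = 1.6e-12). Ifit3 stood at 3.33, 2.12 and 3.53 CPM with empty vector, 4.51, 4.96 and 4.47 for knockout and 0.927, 0.767 and 0.881 for rescue. Ifit3b stood at 1.29, 1.22 and 2.05 CPM with empty vector, 4.13, 3.88 and 3.08 for knockout and 0.713, 0.548 and 0.503 for rescue. Neither overlapped between any pair of groups, and the values of Ifit3 and Ifit3b are uncertain since reads can fall on either copy. Their changes in rescue against knockout were -2.41 ± 0.24 and -2.58 ± 0.29.

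Ifit2, the first gene of this row (32837 bases from its start to that of Ifit3), went another way in rescue. Its values were 35.3, 33.1 and 36.5 CPM with empty vector, 45.8, 46.8 and 41.9 for knockout and 43.9, 43.2 and 49.4 for rescue. Knockout and rescue overlapped, and both lay above empty vector. The change was 0.35 ± 0.07 in knockout against empty vector (edgeR adjusted p = 0.00039), 0.02 ± 0.07 in rescue against knockout (edgeR adjusted p = 0.80) and 0.38 ± 0.07 in rescue against empty vector (edgeR adjusted p = 0.00031). With library totals alone as the scale, its change in rescue against knockout was 0.21 (edgeR adjusted p = 0.019).

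Isg15 is a ubiquitin-like protein that is joined to other proteins by the activating enzyme Uba7, the conjugating enzyme Ube2l6 and, in mice, the ligase Herc6. Isg15 (chromosome 4, 156199424 to 156200818, minus strand) stood at 82.0, 103 and 93.6 CPM with empty vector, 122, 114 and 113 for knockout and 25.8, 33.0 and 24.4 for rescue. The step from empty vector to knockout was small beside the drop to rescue, and no groups overlapped. It rose by 0.33 ± 0.10 in knockout against empty vector (edgeR adjusted p = 0.01; 0.21 with library totals alone) and fell by 2.07 ± 0.11 in rescue against knockout (edgeR adjusted p = 6.6e-10).

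Uba7 stood at 9.54, 15.1 and 14.1 CPM with empty vector, 28.4, 30.2 and 26.97 for knockout and 8.77, 8.43 and 7.61 for rescue. Its knockout libraries were highest by far, with a change of 1.15 ± 0.13 against empty vector and of -1.77 ± 0.13 in rescue against knockout. Herc6 stood at 5.504, 7.91 and 5.496 CPM with empty vector, 11.7, 10.1 and 7.54 for knockout and 3.56, 3.998 and 3.02 for rescue. Here empty vector and knockout overlapped, although the rise in knockout was called (0.64 ± 0.18, edgeR adjusted p = 0.0043). Rescue lay below both (-1.45 ± 0.19 against knockout, edgeR adjusted p = 2.7e-06). Ube2l6 was scarce, with 11, 3 and 9 counts with empty vector, 14, 7 and 21 for knockout and 18, 17 and 11 for rescue. It reached the count minimum in no empty-vector library, so the filter favoured a rise against empty vector. It did not share the drop in rescue: the change against knockout was -0.11 ± 0.36 (edgeR adjusted p = 0.81), and that against empty vector was 1.03 ± 0.40 (edgeR adjusted p = 0.041). This last call was lost without any single library except empty-vector replicate 1 and knockout replicate 2, with an edgeR adjusted p of up to 0.15. The call of Ube2l6 in knockout against empty vector (edgeR adjusted p = 0.021) was lost without empty-vector replicate 2 or 3 or knockout replicate 1 or 3, with an edgeR adjusted p of up to 0.085.

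The membrane factors act at the ends of the viral cycle: the Ifitm proteins hinder fusion of the incoming virus, and Bst2, or tetherin, holds budding particles at the cell surface. Ifitm3 (chromosome 7, 141009586 to 141010770, minus strand) stood at 246, 249 and 258 CPM with empty vector, 476, 428 and 422 for knockout and 131, 149 and 138 for rescue. The groups were far apart relative to their spread, with changes of 0.82 ± 0.07 in knockout against empty vector and -1.67 ± 0.07 in rescue against knockout (edgeR adjusted p = 2.1e-13). Bst2 (chromosome 8, 71534255 to 71537456, minus strand) stood at 308, 382 and 349 CPM with empty vector, 526, 486 and 450 for knockout and 109, 119 and 113 for rescue. It lost more in rescue than it had gained in knockout, at -2.10 ± 0.08 against knockout and -1.61 ± 0.08 against empty vector.

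Ifitm2, whose start lies 54783 bases from that of Ifitm3 on the same strand, stood at 87.7, 83.7 and 99.9 CPM with empty vector, 124, 135 and 136 for knockout and 137, 124 and 115 for rescue. As with Ifit2, knockout and rescue overlapped and both lay above empty vector. The change was 0.54 ± 0.08 in knockout against empty vector (edgeR adjusted p = 4.3e-06) and -0.07 ± 0.07 in rescue against knockout (edgeR adjusted p = 0.45). Ifitm1 was close to silent, with 3 counts in empty-vector replicate 2, 1 in knockout replicate 3, 1 in rescue replicate 1 and 0 in the other libraries, and was not tested. Reads of Ifitm genes can be shared between copies, so their values are uncertain.

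The Mx proteins are dynamin-like GTPases that trap viral nucleocapsids, and many inbred mouse strains carry defective Mx genes. The deposited table lists Mx2 as a polymorphic pseudogene. Mx2 stood at 8.88, 13.8 and 12.8 CPM with empty vector, 33.7, 30.8 and 26.3 for knockout and 1.96, 3.67 and 2.52 for rescue. Its groups did not overlap, and it fell in rescue against knockout by 3.51 ± 0.22 (edgeR adjusted p = 3.8e-08). Mx1 was low throughout, with 12, 13 and 16 counts with empty vector, 25, 17 and 25 for knockout and 7, 5 and 6 for rescue. It fell in rescue against knockout by 2.16 ± 0.38 (edgeR adjusted p = 6.9e-05). Against empty vector (-1.15 ± 0.41, edgeR adjusted p = 0.027) the call was lost without empty-vector replicate 2 or 3 or rescue replicate 1 or 2, with an edgeR adjusted p of up to 0.11. The rise in knockout (1.00 ± 0.33, edgeR adjusted p = 0.012) was lost without empty-vector replicate 1 (edgeR adjusted p = 0.05) or knockout replicate 1 (0.064).

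Rsad2, or viperin, makes a nucleotide that ends viral RNA chains, from CTP that the mitochondrial kinase Cmpk2 helps to supply. The genes are neighbours on chromosome 12 with divergent starts 12752 bases apart. Rsad2 (26442746 to 26456452, minus strand) stood at 48.0, 43.3 and 50.4 CPM with empty vector, 242, 234 and 184 for knockout and 10.6, 10.2 and 11.1 for rescue. Cmpk2 (26469204 to 26479837, plus strand) stood at 7.32, 6.88 and 7.74 CPM with empty vector, 31.0, 38.1 and 34.7 for knockout and 3.96, 3.45 and 3.27 for rescue. Both were several times higher in each knockout library than in any library of the other groups. In knockout against empty vector their changes were alike, at 2.21 ± 0.09 for Rsad2 and 2.23 ± 0.11 for Cmpk2 (difference not tested). In rescue against knockout they were -4.37 ± 0.11 and -3.26 ± 0.12, that is 20.7-fold and 9.55-fold lower (edgeR adjusted p = 2.8e-14 and 2.7e-14).

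Isg20, an exonuclease that degrades RNA, was called higher in rescue against knockout, where 34 effectors fell. It stood at 14.5, 15.8 and 13.5 CPM with empty vector, 9.41, 9.25 and 9.31 for knockout and 13.9, 13.3 and 16.04 for rescue. The knockout libraries lay below all others, while empty vector and rescue overlapped. It fell in knockout against empty vector by 0.64 ± 0.11 (edgeR adjusted p = 3.6e-05), rose in rescue against knockout by 0.62 ± 0.11 (edgeR adjusted p = 5.8e-05) and differed by -0.02 ± 0.10 in rescue against empty vector (edgeR adjusted p = 0.90).

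Slfn2, a Schlafen family member, stood at 77.5, 98.4 and 95.2 CPM with empty vector, 74.2, 79.1 and 78.4 for knockout and 24.2, 27 and 24.6 for rescue. Empty vector and knockout overlapped. Its fall in knockout (-0.23 ± 0.08, edgeR adjusted p = 0.018) was lost without empty-vector replicate 2 (edgeR adjusted p = 0.073) or 3 (0.08) or knockout replicate 1 (0.07), so that the count of effectors lower in knockout was then 1 in place of 2. Rescue lay far below, at -1.61 ± 0.08 against knockout (edgeR adjusted p = 6.7e-12). The helicase Ddx60 had a similar course, with 9.94 to 17.2 CPM with empty vector, 9.82 to 12.6 for knockout and 1.14 to 1.37 for rescue. Its change in knockout against empty vector did not pass (-0.29 ± 0.17, edgeR adjusted p = 0.15; -0.48 and 0.0014 without empty-vector replicate 1), and its change in rescue against knockout was -3.23 ± 0.23.

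The helicase Helz2 stood at 160 to 216 CPM with empty vector, 219 to 260 for knockout and 63.7 to 84.5 for rescue. For knockout against empty vector its change of 0.32 ± 0.13 did not pass (edgeR adjusted p = 0.055). It was called without empty-vector replicate 2 (0.041), knockout replicate 3 (0.043) or rescue replicate 1 (0.018) or 3 (0.036). Helz2 was also called with DESeq2 size factors (edgeR adjusted p = 0.03), without the low-count filter (8e-04) and over the 6 libraries compared (0.022). The DESeq2 test called it too (DESeq2 adjusted p = 0.0036). Samd9l, which restrains translation, stood at 9.86 to 16.8, 16.7 to 21.1 and 6.02 to 6.95 CPM. Its rise in knockout (0.40 ± 0.16, edgeR adjusted p = 0.043) was lost without empty-vector replicate 1, knockout replicate 2 or 3, or any rescue replicate, with an edgeR adjusted p of up to 0.15. That call was also lost with library totals alone (edgeR adjusted p = 0.25) and over the 6 libraries compared (0.077). In rescue against knockout both fell, by 1.73 ± 0.13 for Helz2 and by 1.53 ± 0.17 for Samd9l.

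**Figure D2:**
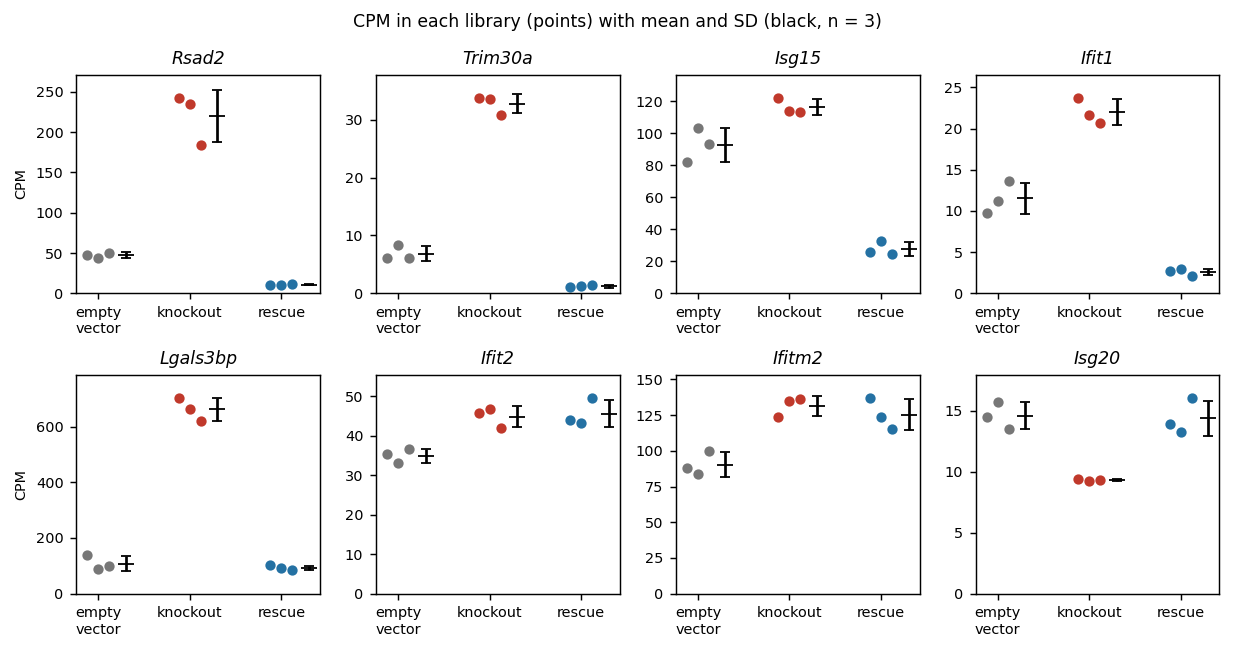
CPM of 8 effectors in each library (points; one panel per gene, linear axis from 0) with the mean and SD of the 3 libraries of a group in black. Rsad2, Trim30a, Isg15 and Ifit1 are highest in knockout and lowest in rescue, Lgals3bp lies near empty vector in rescue, Ifit2 and Ifitm2 stay at the knockout level in rescue, and Isg20 is lowest in knockout.

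Most Parp proteins of this set attach ADP-ribose to proteins, and Parp9 works in a complex with the ubiquitin ligase Dtx3l. All 5 rose in knockout against empty vector, fell in rescue against knockout and fell in rescue against empty vector. Parp9 (chromosome 16, 35938470 to 35972605, plus strand) stood at 45.5, 50.02 and 52.3 CPM with empty vector, 102, 100.1 and 106 for knockout and 27.3, 26.6 and 26.7 for rescue. Dtx3l (35926511 to 35939151, minus strand) stood at 28.5, 28.4 and 33.7 CPM with empty vector, 63.0, 54.7 and 56.9 for knockout and 20.4, 17.2 and 16.6 for rescue. These head-to-head genes overlap by 682 bases at their starts and had like changes, at 1.06 ± 0.06 and 0.94 ± 0.09 in knockout against empty vector and -1.93 ± 0.07 and -1.68 ± 0.09 in rescue against knockout. Reads from the shared stretch cannot be assigned without strand, and the sources used here do not give whether counting used strand.

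Parp14, whose start lies 66926 bases from that of Parp9, stood at 39.7, 51.4 and 45.6 CPM with empty vector, 105, 101 and 92.4 for knockout and 16.3, 17.9 and 12.8 for rescue. It had the steepest drop of the 5 in rescue against knockout, at -2.66 ± 0.11 (edgeR adjusted p = 5.1e-11). Parp12 moved least in rescue, with 30.2 to 33.5 CPM with empty vector, 42.6 to 48.3 for knockout and 24.4 to 27.6 for rescue. Against empty vector its change of -0.25 ± 0.08 (edgeR adjusted p = 0.013) was lost without empty-vector replicate 1 (0.077) or rescue replicate 1 (0.09). Parp10 stood at 81.5 to 99.9, 100.4 to 111 and 39.3 to 49.1 CPM. Its rise in knockout (0.23 ± 0.08, edgeR adjusted p = 0.024) was lost without empty-vector replicate 1 (0.056) or knockout replicate 1 (0.092) or 2 (0.09), and with library totals alone (0.54). Parp10 shares 1401 bases on the same strand with the abundant gene Plec, so its counts are uncertain.

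Among the nuclear factors and ubiquitin ligases, Trim30a changed most. It stood at 6.04, 8.29 and 6.14 CPM with empty vector, 33.8, 33.6 and 30.8 for knockout and 1.03, 1.21 and 1.51 for rescue. No group overlapped another, and the knockout mean was 26.8 times that of rescue by the fitted change (-4.74 ± 0.15, edgeR adjusted p = 6.8e-15). Sp100, a scaffold of PML nuclear bodies, stood at 5.59, 7.59 and 6.66 CPM with empty vector, 12.97, 17.6 and 16.1 for knockout and 3.46, 3.72 and 3.15 for rescue. It rose by 1.24 ± 0.14 in knockout and fell by 2.17 ± 0.15 in rescue against knockout.

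Rnf213, a very large ubiquitin ligase that coats intracellular bacteria, was level between empty vector and knockout and lower in rescue. Its values were 183, 224 and 190 CPM with empty vector, 217, 201 and 182 for knockout and 103, 91.7 and 104 for rescue. The change in knockout against empty vector was 0.01 ± 0.08 (edgeR adjusted p = 0.93), and that in rescue against knockout was -1.01 ± 0.08 (edgeR adjusted p = 1.1e-08). Trim21, a cytosolic receptor for antibody-coated particles, had 6.53 to 9.45, 10.2 to 10.9 and 2.77 to 3.81 CPM. Its rise in knockout (0.40 ± 0.14, edgeR adjusted p = 0.021) was lost without empty-vector replicate 1 (0.084), knockout replicate 1 (0.057) or knockout replicate 3 (0.073), and with library totals alone (0.17). The PHD finger gene Phf11d was scarce, with 2 to 31 counts per library, and changed by -2.48 ± 0.41 in rescue against knockout. Its change in knockout against empty vector did not pass (0.66 ± 0.33, edgeR adjusted p = 0.089).

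**Figure D3:**
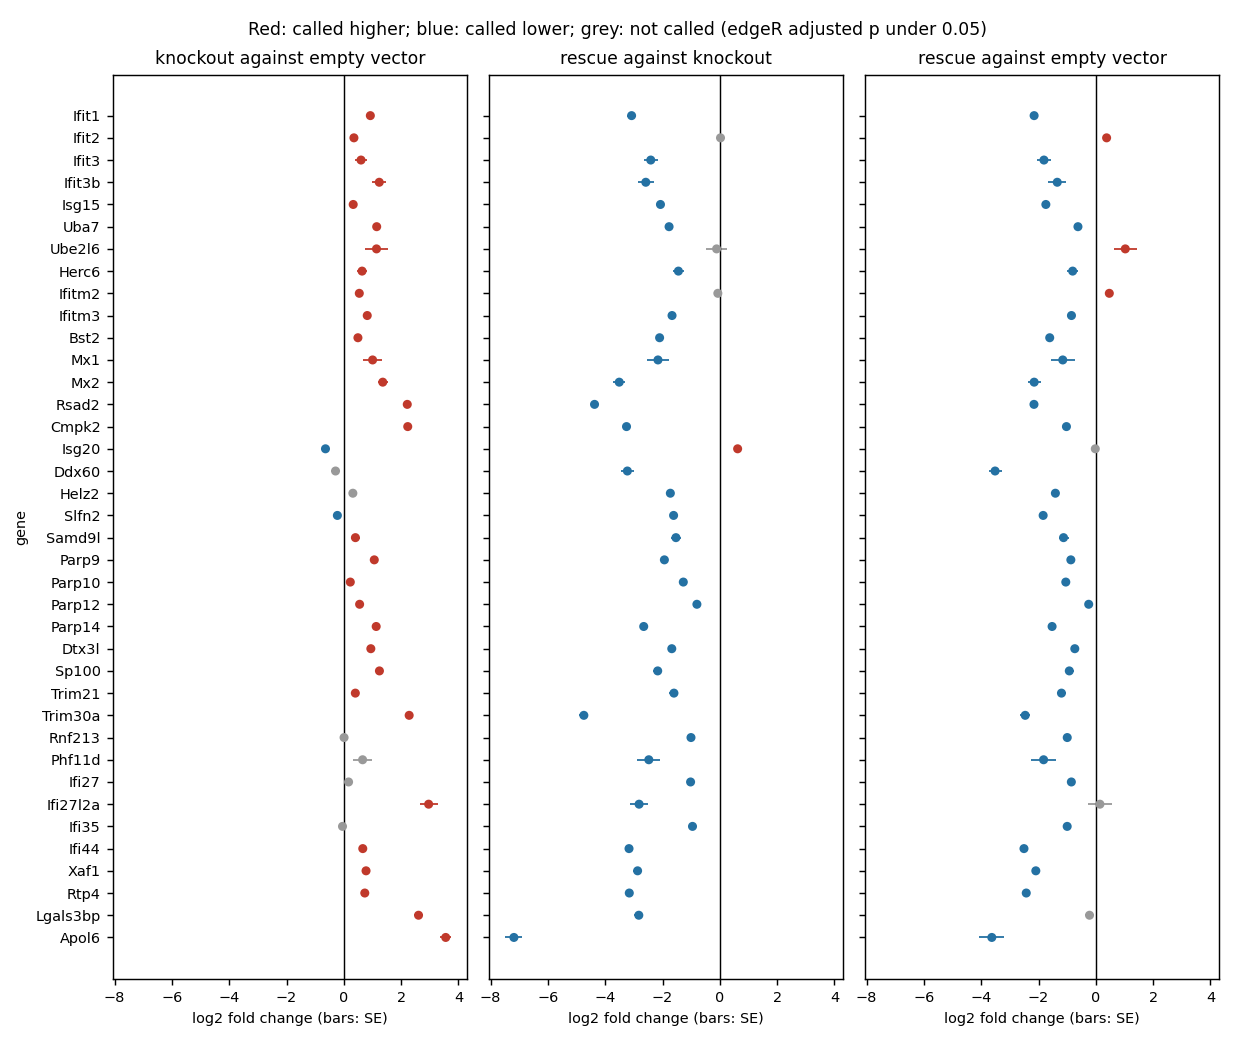
Log2 fold change (points) with its standard error (bars) of the 38 tested effectors, by role from top to bottom, in the 3 comparisons. In knockout against empty vector 30 genes are red (higher) and 2 blue (lower), in rescue against knockout 34 are blue and Isg20 alone is red, and in rescue against empty vector Ifit2, Ube2l6 and Ifitm2 are red.

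The other effectors hold the widest range. Apol6, an apolipoprotein L family member, had 21, 27 and 31 counts with empty vector, 209, 214 and 335 for knockout and 3, 2 and 1 for rescue. Its summed, scaled counts were 152 times as high in knockout as in rescue, with an exact 95% counting interval of 69.7 to 417 that covers counting error only. Against empty vector it rose in knockout by 3.56 ± 0.19 log2 units (edgeR adjusted p = 1.4e-11). Its region overlaps Mb on the other strand over 5942 bases, and Mb had 1 to 6 counts per library.

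Ifi44 stood at 81.9, 112 and 96.2 CPM with empty vector, 166, 145 and 147 for knockout and 16.1, 18.8 and 16.2 for rescue. Rtp4, a receptor-transporting protein that binds viral replication machinery, stood at 28.5, 35.2 and 35.8 CPM with empty vector, 53.9, 53.2 and 57.6 for knockout and 5.99, 7.61 and 4.78 for rescue. In both, the drop in rescue was larger than the rise in knockout: Ifi44 changed by 0.66 ± 0.10 and -3.17 ± 0.11, and Rtp4 by 0.73 ± 0.10 and -3.16 ± 0.13. Xaf1, which antagonises an inhibitor of apoptosis, was alike at 13.7 to 20.3, 29.2 to 31.2 and 3.51 to 4.56 CPM. The region of Rtp4 overlaps Masp1 on the other strand over 525 bases, and Masp1 had 757 to 1892 counts per library. It also overlaps Gm45338 on the same strand over 39791 bases (9 to 41 counts), so the counts of Rtp4 are uncertain.

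Lgals3bp, a secreted glycoprotein that binds galectin-3, rose in knockout and lay near empty vector in rescue. Lgals3bp ranged from 88.9 to 138 CPM with empty vector, from 622 to 702 for knockout and from 86.7 to 102 for rescue. Its change was 2.61 ± 0.15 in knockout against empty vector (edgeR adjusted p = 2.6e-07) and -0.22 ± 0.15 in rescue against empty vector (edgeR adjusted p = 0.25), the latter called without empty-vector replicate 2 (-0.34; 0.04) and at 0.02 without empty-vector replicate 1 (0.87). Ifi27l2a, whose differences from knockout were built in by the filter, had 8, 5 and 8 counts with empty vector, 40, 39 and 54 for knockout and 11, 7 and 5 for rescue. In rescue against empty vector it changed by 0.14 ± 0.42 (edgeR adjusted p = 0.80).

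Ifi27 and Ifi35 differed little between empty vector and knockout. Ifi27, whose 3′ end faces that of Ifi27l2a on chromosome 12, ranged from 187 to 217 CPM with empty vector, 220 to 242 for knockout and 101 to 123 for rescue, and its change in knockout against empty vector was 0.17 ± 0.07 (edgeR adjusted p = 0.061; 0.025 without empty-vector replicate 2). Ifi35 ranged from 45.7 to 56.8, 48.2 to 55.4 and 25.6 to 27.1 CPM, with a change of -0.05 ± 0.08 (edgeR adjusted p = 0.64). In rescue against knockout Ifi27 fell by 1.02 ± 0.08 and Ifi35 by 0.95 ± 0.08. Epsti1 had 1 count in empty-vector replicate 3 and 0 in every other library.

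The call of Ifit3 in knockout against empty vector (0.60 ± 0.20, edgeR adjusted p = 0.013) was lost without empty-vector replicate 2 (0.073) and with library totals alone (0.057). Empty-vector replicate 1 had the lowest mean log2 CPM over the tested effectors in its group, at 4.07 against 4.28 and 4.26, while knockout libraries lay at 5.05 to 5.17 and rescue libraries at 2.85 to 2.98. The spread within groups was thus small beside the distance between groups on this summary.

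Levels of different genes were compared per length, on the deposited FPKM values (fragments per kilobase of gene length, scaled to sequencing depth). Bst2 and Ifitm3 led in empty vector, with means of 379 and 366 FPKM, followed by Ifi27 (137), Ifitm2 (136) and Isg15 (122). In knockout Ifitm3 (652) and Bst2 (540) came first, Lgals3bp moved from the seventh place (37.7 FPKM) to the third (232), and Rsad2 from place 14 (10.8) to place 7 (50.8). In rescue Ifitm3 stood at 204 FPKM, Ifitm2 at 190 and Bst2 at 125, and Rsad2 was at place 19 with 2.43 FPKM. At the other end in empty vector lay Mx1, Phf11d, Ube2l6, Ifitm1 and Epsti1, with means of 0.175, 0.202, 0.173, 0.0576 and 0.00568 FPKM. The top 5 effectors by mean CPM took 53.6%, 54.1% and 53.5% of the summed CPM of the 40 in empty vector, knockout and rescue, so the sum is carried by few genes. That sum ranged from 2052 to 2360 CPM with empty vector, 3595 to 3996 for knockout and 1063 to 1128 for rescue.

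**Figure D4:**
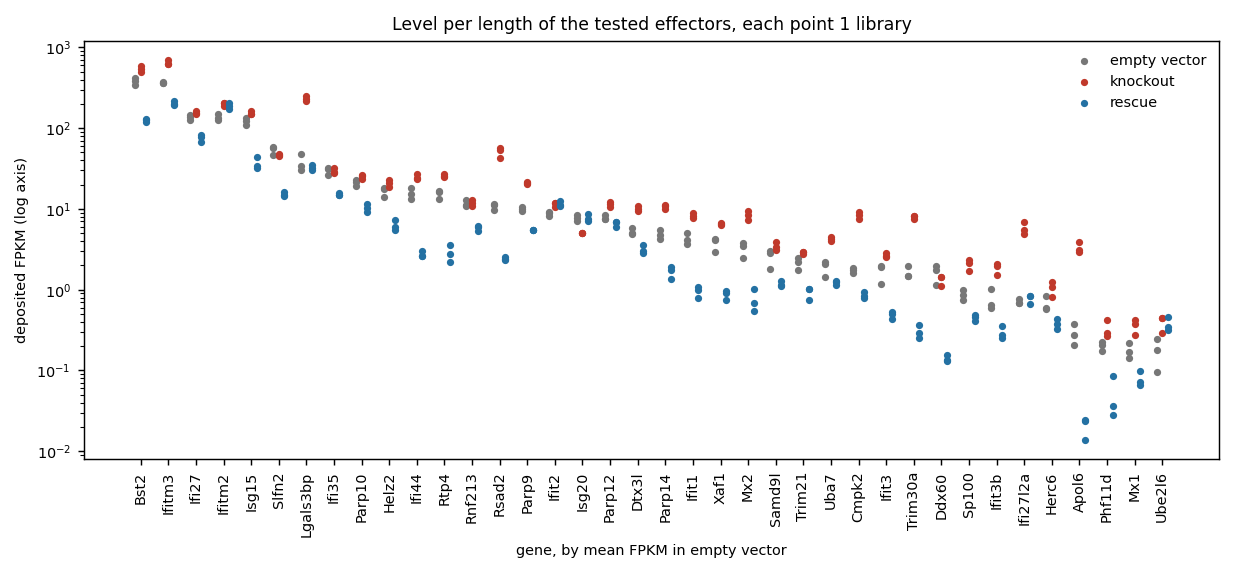
Deposited FPKM (log axis) of the 38 tested effectors, each point 1 library, with genes ordered by their mean in empty vector. Bst2 and Ifitm3 lie highest, and the blue rescue points lie lowest for most genes.

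Other genes of the interferon pathway, 59 in a list of 7 roles, were read beside the effectors. In knockout against empty vector 24 rose and 4 fell, in rescue against knockout 2 rose and 35 fell, and in rescue against empty vector 3 rose and 31 fell, with medians of 0.40, -1.17 and -0.88 over the 46 tested. Over all genes tested, the shares were 29.5% higher and 31.1% lower, 29.5% and 27.3%, and 22.4% and 25.1%. No interferon gene of the list was tested: of 10 ligand genes, Ifna1, Ifna2, Ifna5, Ifne, Ifng, Ifnl2 and Ifnl3 had no count, Ifnb1 had 0 to 4 counts per library and none in rescue, Ifna4 had 2 in knockout replicate 3 alone, and Ifnk had 1 in empty-vector replicate 1 alone.

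The receptors were present. Ifnar1, a subunit of the type I receptor, stood at 87.8, 79.5 and 84.96 CPM with empty vector, 121, 116 and 104 for knockout and 68.8, 61.1 and 58.2 for rescue. Ifnar2, its partner, stood at 59.8, 51.9 and 56.6 CPM with empty vector, 85.7, 86.7 and 82.6 for knockout and 40.8, 37.9 and 40.6 for rescue. Both followed the order of most effectors without overlap, with smaller changes: 0.43 ± 0.07 and 0.60 ± 0.07 in knockout against empty vector, and -0.85 ± 0.07 and -1.09 ± 0.07 in rescue against knockout. Of 9 receptors and kinases 5 rose in knockout against empty vector and 7 fell in rescue against knockout. Of the 3 kinases, Tyk2 rose in knockout against empty vector (0.40 ± 0.08) and fell in rescue against knockout (-0.38 ± 0.08), while Jak1 (0.01 ± 0.06) and Jak2 (0.16 ± 0.08) did not pass in rescue against knockout. Ifngr1, a subunit of the interferon gamma receptor, was higher in rescue than in empty vector (0.48 ± 0.10), and the type III receptor subunit Ifnlr1 was lower (-0.53 ± 0.11). In rescue against empty vector Ifngr2 changed by -0.17 ± 0.07 (edgeR adjusted p = 0.071) and Il10rb by -0.49 ± 0.10 (0.00035).

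Among the transcription factors, Irf7, which amplifies the response, stood at 114 ± 11.9 CPM with empty vector, 173 ± 7.96 for knockout and 26.8 ± 1.93 for rescue (SD, n = 3). Irf9, which gives the complex its DNA contact, was at 67.3, 51.0 and 22.9 CPM on average, with a change of -0.40 ± 0.07 in knockout against empty vector and -1.15 ± 0.08 in rescue against knockout. Irf1, Irf2, Irf3 and Irf8 were not called in rescue against knockout, with changes of 0.02 to 0.13. Usp18, a protease that removes Isg15 and damps the receptor, had 31.2, 57.3 and 7.27 CPM on average and fell by 2.97 ± 0.11 in rescue against knockout. Its fellow regulator Socs3 rose in that comparison (0.28 ± 0.12, edgeR adjusted p = 0.043).

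Of 12 sensors and adaptors 11 were tested, and 9 fell in rescue against knockout. Among them were the RNA sensor Ddx58 (-1.51 ± 0.09) and the RNA editor Adar (-1.14 ± 0.07), while the kinase Tbk1 rose by 0.40 ± 0.09. Socs3 and Tbk1 were the only genes of the list called higher there; that count was 1 without knockout replicate 1 or 2 or rescue replicate 1 or 2, 4 without empty-vector replicate 1, and 7 with library totals alone. In the count called higher in rescue against empty vector, 3 became 5 without empty-vector replicate 1. The 7 genes of the Oas family, of which some, but not all, encode enzymes that make a second messenger of RNA decay, all fell in rescue against knockout. Oasl1 (-2.43 ± 0.07) and Oasl2 (-3.58 ± 0.13) had the smallest adjusted p. Of 8 Gbp and Irg GTPases, which attack vacuoles of pathogens, 7 were tested, and all 7 fell. Igtp fell by 3.29 ± 0.13 and Irgm2 by 2.37 ± 0.11. Copies in the Oas and Gbp families can share reads, so single values are uncertain.

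**Figure D5:**
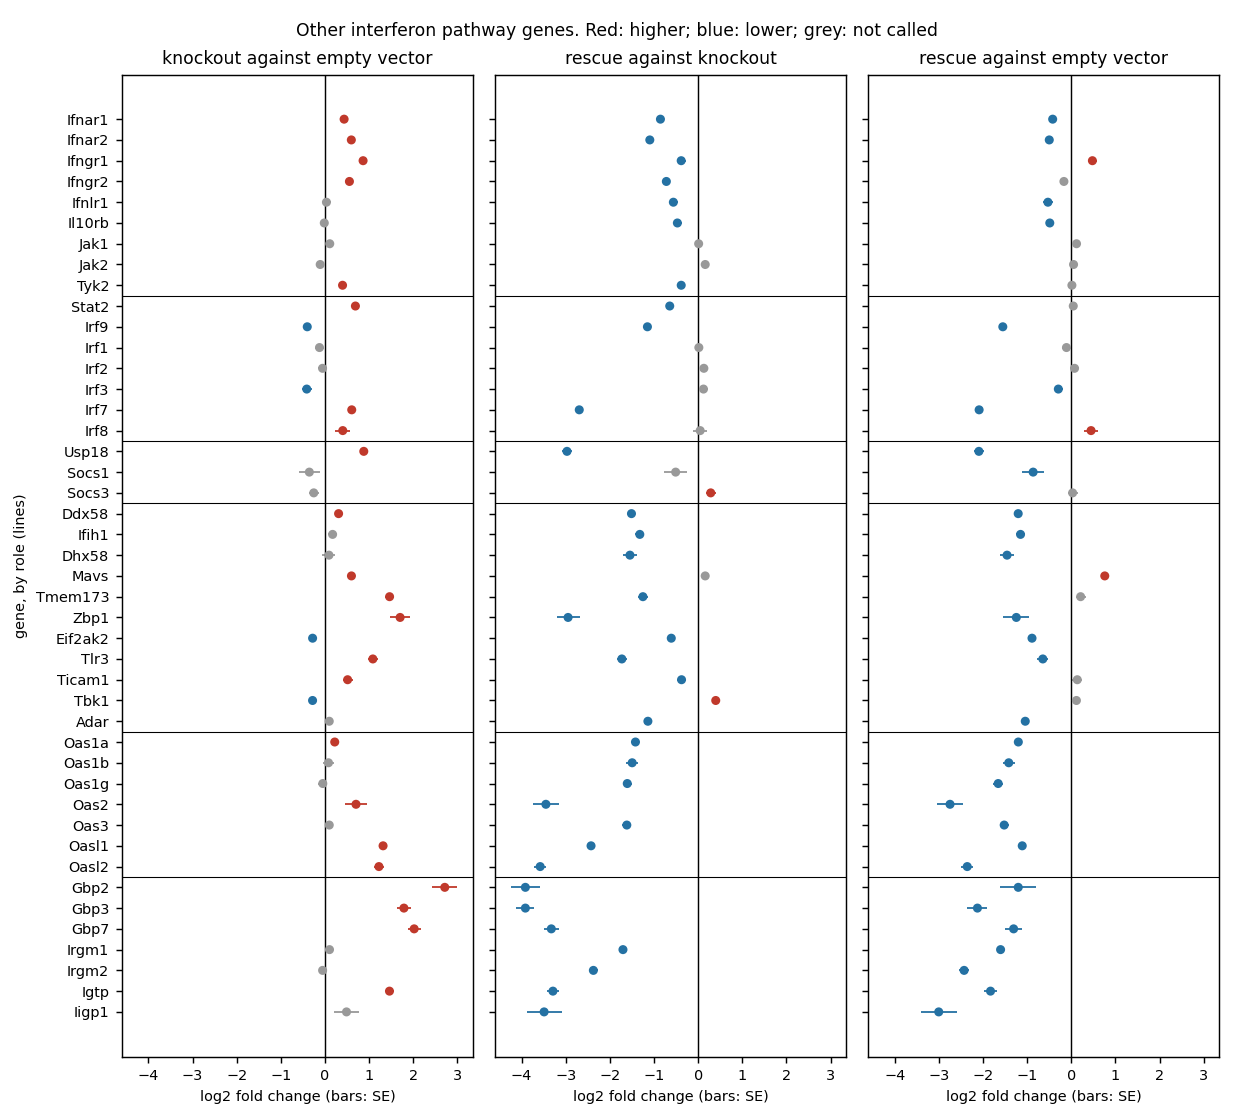
Log2 fold change (points) with its standard error (bars) of 44 tested genes of the interferon pathway outside the 40 effectors, by role from receptors at the top to Gbp and Irg GTPases at the bottom, in the 3 comparisons. In rescue against knockout 34 genes are blue (lower) and 2 red (higher), Gbp and Oas genes lie farthest to the left, and Jak1, Jak2, Irf1 and Irf2 lie near 0.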

How the data were processed

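Poly(A) RNA of RENCA cells was sequenced on Illumina platforms, and the labels' protocols describe both a strand-marking and an unmarked library, without saying which was made. CASAVA, HISAT2, HISAT and TopHat2 stand in the submitters' processing notes without roles, beside the build mm10. The sources used here do not give the read counter. The deposited gene counts are whole numbers that were not normalized, per the file headers. The deposited FPKM values, also per the file headers, were described but not tested.

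The counts were fitted with edgeR 4.0.16 (R 4.3.3): filterByExpr on the groups (minimum count 10, which kept 13326 of 54532 genes), TMM scaling, and a robust quasi-likelihood model with 1 mean per group over all 9 libraries. F-tests gave 3 comparisons, p-values were adjusted across every tested gene by Benjamini-Hochberg, and an adjusted p under 0.05 was a call. Each SE is the size of the log2 change over the root of F. CPM use TMM-scaled totals. DESeq2 1.42.0 was an alternative, and the script was tested on simulated data. Replicates differed beyond sampling noise, with a chi-square of 3.64 to 20.1 for each degree of freedom.

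Members, roles, lists, motifs and tests were chosen with earlier results of these data known. Every effector is named. Library values are given for up to 3 per role with the smallest adjusted p in rescue against knockout, for those called against the majority or in no comparison, and for those not tested. Of the pathway list, up to 2 genes per role with the smallest such p, the ligands and the receptors are named. Cdh1, Pax8, Jak1, Jak2, Tyk2, Irf1, Irf2, Irf3, Irf8 and Tbk1 were named after their values were seen. Some genes of that list count in its totals and are not reported here by name.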

Additional observations from a re-analysis of the deposited data

How the results depend on the processing

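Of the log2 changes of single effectors under 16 alternatives, 1735 kept direction and side of the threshold, 48 lost the call, 19 gained one and 21 changed sign, none of the last a called value. Counts of effectors called lower in rescue stayed at 34 against knockout under every alternative and at 30 to 32 against empty vector when single libraries were left out. With library totals alone, effectors lower in knockout against empty vector numbered 4 and other pathway genes lower 7, while in rescue against knockout 2 effectors, 7 other pathway genes and 5916 of all genes were higher; the cause was not tested. Other pathway genes higher in rescue against knockout numbered 1 with DESeq2 size factors, 1 with the DESeq2 test and 1 with the replicate block. When single libraries were left out, effectors lower in knockout against empty vector ran from 1 to 3, and other pathway genes higher ran from 1 to 4 in rescue against knockout and from 2 to 5 in rescue against empty vector; where a library was left out, its group kept 2.

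Signs changed as follows. Rnf213 in knockout against empty vector was -0.1514 with library totals alone, -0.0397 without the low-count filter and -0.0595 to 0.0937 without single libraries. In the same comparison Ifi35 ran from -0.127 to 0.0024 without single libraries. In rescue against knockout Ifit2 was -2e-04 with DESeq2 size factors and with the DESeq2 test, -0.0058 over the 6 libraries compared, and -0.0306 to 0.0641 without single libraries. Ube2l6 was 0.0702 and Ifitm2 0.1147 with library totals alone, and Ube2l6 ran from -0.273 to 0.0257 without single libraries. In rescue against empty vector Isg20 was 0.0108 with library totals alone, 0.0047 over the 6 libraries and -0.0965 to 0.0335 without single libraries, and Lgals3bp ran from -0.3421 to 0.0161.

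Replicate numbers did not pair the libraries: deviations of same-numbered libraries correlated across genes at -0.15 to 0.05 over 9 pairs, and 0 of 9 libraries correlated best with their own number in both other groups. With the replicate block 31 effectors rose and 2 fell in knockout against empty vector, 1 rose and 34 fell in rescue against knockout, and 2 rose and 32 fell in rescue against empty vector. Under the block Ube2l6 was not called in the last comparison (edgeR adjusted p = 0.057) and Ifi27 was called in the first (edgeR adjusted p = 0.041). Leaving out genes of the mitochondrial genome was added after the data were seen. Fewer than 40 counts per library limit what can be said of Mx1, Phf11d and Ube2l6.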
